A study of Homo sapiens with 24 samples.

Results

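Messenger RNA was measured for 10 genes of the Hippo pathway that act upstream of the transcriptional coactivators YAP and TAZ, and several of which are known to be switched on by YAP and TAZ themselves. The genes were LATS1, LATS2, NF2, AJUBA, AMOT, AMOTL1, AMOTL2, PTPN14, WWC1 and WWC2. They were chosen by name from the pathway, with earlier results of these data known. Each was found by Ensembl identifier among the 60279 genes of every count table. All 10 passed the filter of 5 counts on average, as did 19997 genes in all, which were tested.

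The cells were SW872, an established human liposarcoma line, made to carry a retroviral vector and selected as pooled lines with the antibiotic G418. The 24 libraries formed 8 groups of 3. EV held empty vector, TFE3 and CAMTA1 held those full-length transcription factors, and TAZ-CAMTA1 and YAP-TFE3 held the 2 fusion proteins found in epithelioid hemangioendothelioma. TAZ4SA and YAP5SA held TAZ or YAP with alanines in place of serines that the LATS kinases phosphorylate. Every construct was a double Flag-tagged cDNA under the same vector promoter. Cells were collected after reaching confluence, with 2 exceptions. The growth label names CAMTA1 as collected before confluence, and the titles of a second empty vector group, written EVsub here, give it as sub-confluent. CAMTA1 was therefore set against EVsub and the other 5 constructs against EV. Per the study's methods, cells were transduced and selected anew for each of the 3 libraries of a group.

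The Hippo pathway is a kinase cascade in which the scaffold proteins at cell junctions help the kinases LATS1 and LATS2 phosphorylate YAP and TAZ, which keeps the coactivators out of the nucleus. In the nucleus, YAP and TAZ bind TEAD proteins and raise transcription. Because some of the genes raised in this way restrain YAP and TAZ, the pathway holds a negative feedback loop. The comparisons show the levels of the genes of the loop in the presence of each construct.

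Library totals ranged from 19700277 to 35287476 counts. The 10 genes held between 61 counts (AMOT in EV) and 14936 counts (AJUBA in YAP-TFE3) in a library. Levels are CPM, a count scaled to a common library size after trimmed mean of M-values (TMM) scaling, given as mean ± SD over 3 libraries. Transcripts of other genes that overlap the 10 genes held at most 18 counts in any library. The genes behind the constructs were read as a check of the labels. CAMTA1 rose from 21.4 ± 2.04 CPM in EV to 144 ± 7.14 CPM in TAZ-CAMTA1, TFE3 from 119 ± 10.1 to 336 ± 19.2 CPM in TFE3 and 283 ± 49.6 CPM in YAP-TFE3, and YAP1 from 128 ± 12.5 to 253 ± 4.98 CPM in YAP5SA. WWTR1, the gene of TAZ, went against its label. It measured 204 ± 20.3 CPM in EV but 134 ± 0.538 CPM under the label TAZ4SA, so these are named below as libraries labelled TAZ4SA. It was not above EV in TAZ-CAMTA1 either, at 181 ± 2.15 CPM, and measured 126 ± 3.17 CPM in YAP-TFE3 and 68.7 ± 1.66 CPM in YAP5SA. Whether reads of a construct's cDNA were counted to its gene was not tested. YAP-TFE3 replicate 3 stood apart from the other 2 libraries of its group, with a chi-square per degree of freedom of 71.3 and 56.2 against them, where all other pairs of libraries of one group gave at most 25.9. Calls of the 10 genes between YAP-TFE3 and EV also held without it. Of the 7 mesenchymal markers, 7 exceeded 1 CPM in EV, as did 5 of 5 endothelial, 4 of 5 epithelial and 2 of 6 fat cell markers, PPARG and LPL. The fat cell markers ADIPOQ and FABP4 were at 0 counts in EV, and the 4 blood markers summed to at most 1.66 CPM in any library.

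Of the 10 genes, 6 separated the libraries of YAP and TAZ constructs from those of EV and TFE3. In all 12 libraries of TAZ-CAMTA1, YAP-TFE3, YAP5SA and those labelled TAZ4SA, the levels of LATS2, AMOTL2, PTPN14, WWC1, WWC2 and AJUBA lay above all 6 libraries of EV and TFE3. LATS1, NF2, AMOT and AMOTL1 overlapped between these sets. How many of all tested genes separate the same libraries in this way was not counted, so the 6 genes are a description only. AMOTL2 had the widest range among the 10 genes, 18.0-fold between the highest and the lowest group mean, followed by AJUBA with 8.91-fold and WWC1 with 8.39-fold. AMOTL1, with 1.52-fold, LATS1, with 1.76-fold, and PTPN14, with 1.81-fold, had the narrowest. In bulk RNA, a change in the number of cells that express a gene and a change in the RNA per cell cannot be told apart.

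**Figure D1:**
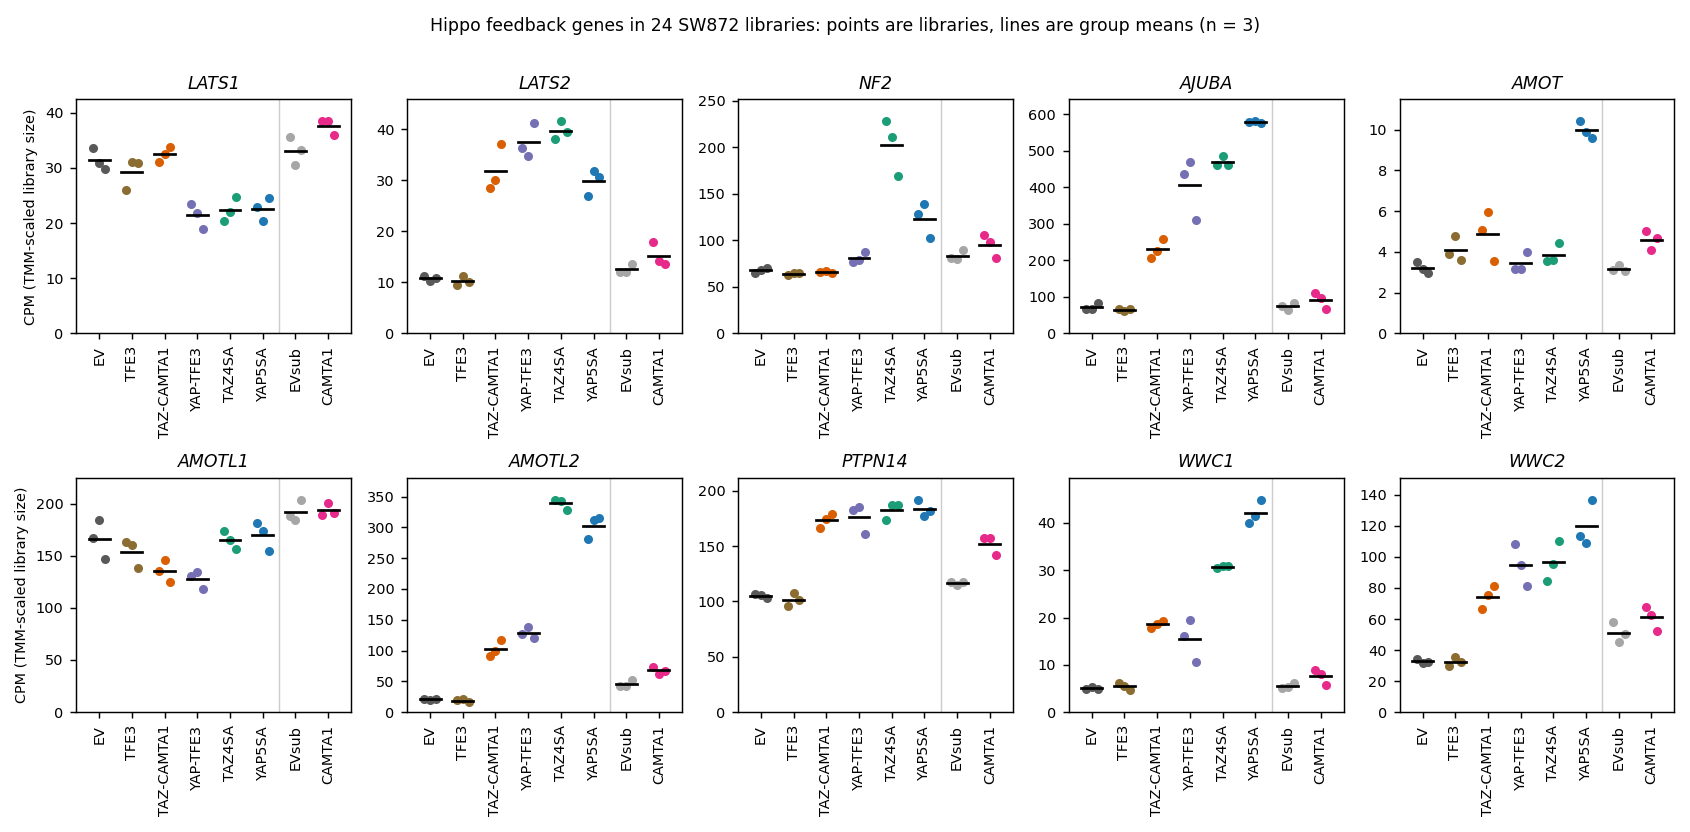
Level of each of the 10 genes in CPM (y axis, from 0, a separate scale for each gene) in each library, by group (x axis, with the 2 sub-confluent groups to the right of the grey line). Points are libraries and black lines are means of 3. AMOTL2 sat between 16.5 and 21.1 CPM in EV and TFE3 and between 91.3 and 345 CPM in the 4 groups with YAP or TAZ constructs.

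LATS1 and LATS2 are the paralogous kinases that phosphorylate YAP and TAZ, and their levels moved apart. LATS2 (ENSG00000150457, chr13:20973036-21061586 on hg38, minus strand) measured 11.3, 10.3 and 10.8 CPM in EV. It measured 27.0, 31.8 and 30.7 CPM in YAP5SA, 38.0, 41.7 and 39.5 CPM under the label TAZ4SA, 28.56, 29.95 and 37.13 CPM in TAZ-CAMTA1 and 36.4, 34.8 and 41.3 CPM in YAP-TFE3. No library with a YAP or TAZ construct overlapped those of EV. The log2 fold change against EV was 1.47 ± 0.12 (SE) in YAP5SA, 1.88 ± 0.12 in the libraries labelled TAZ4SA, 1.57 ± 0.12 in TAZ-CAMTA1 and 1.80 ± 0.12 in YAP-TFE3, with an adjusted p of at most 2.34e-09 in the edgeR quasi-likelihood test. In order of level, the 4 construct groups overlapped their neighbours, a gap separated them from CAMTA1, EVsub and EV, which did not overlap each other, and EV overlapped TFE3.

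LATS1 (ENSG00000131023, chr6:149658153-149718105, minus strand) measured 33.67, 30.96 and 29.75 CPM in EV. It measured 22.9, 20.4 and 24.5 CPM in YAP5SA, 20.4, 22.1 and 24.6 CPM in the libraries labelled TAZ4SA and, in YAP-TFE3, 23.5, 21.8 and 18.9 CPM. These 9 libraries all lay below the EV libraries. LATS1 fell by 0.48 ± 0.10 on the log2 scale in YAP5SA (adjusted p = 0.000524), by 0.49 ± 0.10 in the libraries labelled TAZ4SA (adjusted p = 0.000329) and by 0.56 ± 0.10 in YAP-TFE3 (adjusted p = 7.03e-05). TAZ-CAMTA1, at 31.1, 32.5 and 33.8 CPM, overlapped EV, and its log2 fold change was 0.04 with a 95% confidence interval from -0.16 to 0.25 (adjusted p = 0.872).

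Per kilobase of exon, the 2 kinases could be compared with each other. LATS2 made up 34.2 ± 1.04% of the LATS total in EV and 34.7 ± 1.29% in TFE3. Its share was 59.6 ± 2.46% in TAZ-CAMTA1, 66.6 ± 3.26% in YAP5SA, 72.6 ± 3.71% in YAP-TFE3 and 72.9 ± 1.83% in the libraries labelled TAZ4SA. Per kilobase, LATS1 was thus the more abundant in EV and LATS2 in the 4 construct groups, in every library. The lengths used were all annotated exons joined, 8492 bases for LATS1 and 5613 for LATS2, and need not be those of the transcripts expressed. In CPM, the means in TAZ-CAMTA1 were close, 32.4 ± 1.3 for LATS1 and 31.9 ± 4.6 for LATS2, so the order there rests on these lengths. The LATS total per kilobase was 5.62 ± 0.30 CPM in EV. It lay between 7.97 ± 0.43 CPM (YAP5SA) and 9.71 ± 0.46 CPM (the libraries labelled TAZ4SA) in the 4 construct groups. No test was made of the shares themselves.

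NF2 (ENSG00000186575, chr22:29603556-29698598, plus strand) encodes Merlin, a scaffold that brings LATS kinases to the membrane. NF2 measured 64.9, 68.0 and 69.9 CPM in EV, 128.6, 138.4 and 102.6 CPM in YAP5SA and 228.4, 210.7 and 168.5 CPM in the libraries labelled TAZ4SA. It rose by 0.87 ± 0.11 on the log2 scale in YAP5SA (adjusted p = 8.15e-07) and by 1.58 ± 0.11 in the libraries labelled TAZ4SA (adjusted p = 4.32e-11). The fusions stood apart from these. TAZ-CAMTA1, at 65.3, 66.6 and 64.5 CPM, overlapped EV, with a log2 fold change of -0.04 (adjusted p = 0.881), and YAP-TFE3, at 76.1, 78.8 and 86.9 CPM, lay above EV with a log2 fold change of 0.255 that missed the threshold (adjusted p = 0.0609).

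AJUBA (ENSG00000129474, chr14:22971177-22982551, minus strand) is a LIM-domain protein that binds LATS kinases at junctions and, unlike the other members, holds back their action on YAP. It measured 67.7, 65.4 and 82.8 CPM in EV and 580.1, 582.6 and 576.4 CPM in YAP5SA. Its values were 461.7, 484.8 and 461.0 CPM under the label TAZ4SA, 437.0, 468.7 and 310.4 CPM in YAP-TFE3 and 205.5, 225.6 and 259.6 CPM in TAZ-CAMTA1. The 4 construct groups did not overlap EV in any library. AJUBA rose by 3.01 ± 0.16 on the log2 scale in YAP5SA, 2.71 ± 0.16 in the libraries labelled TAZ4SA, 2.50 ± 0.16 in YAP-TFE3 and 1.68 ± 0.15 in TAZ-CAMTA1, and the adjusted p was at most 5.48e-08. In EV it was, per kilobase, the second most abundant of the 10 genes after AMOTL1, with 12.2 ± 1.61 against 16.5 ± 1.86 CPM per kilobase. In the 4 construct groups it was the most abundant, with 39.1 ± 4.65 CPM per kilobase in TAZ-CAMTA1 and 98.5 ± 0.53 CPM per kilobase in YAP5SA.

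AMOT, AMOTL1 and AMOTL2 are the angiomotins, junction proteins that bind YAP and TAZ directly and stimulate LATS. AMOTL2 (ENSG00000114019, chr3:134355347-134375479, minus strand) measured 21.1, 20.4 and 21.1 CPM in EV. It reached 281.1, 312.4 and 315.7 CPM in YAP5SA, 345.2, 342.7 and 328.7 CPM under the label TAZ4SA, 126.7, 138.7 and 120.8 CPM in YAP-TFE3 and 91.3, 99.8 and 117.2 CPM in TAZ-CAMTA1. Adjacent groups in the order of level did not overlap, with the sole exception of EV and TFE3 at the bottom. AMOTL2 rose 14.5-fold in YAP5SA, 16.2-fold in the libraries labelled TAZ4SA, 6.17-fold in YAP-TFE3 and 4.92-fold in TAZ-CAMTA1, and the adjusted p was at most 2.44e-13. It had the largest log2 fold change of the 10 genes in each of these comparisons.

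AMOT (ENSG00000126016, chrX:112774503-112840831, minus strand) rose in YAP5SA and in TAZ-CAMTA1. It was scarce, with 61 to 102 counts or 3.52, 3.16 and 2.96 CPM in EV. YAP5SA held 10.4, 9.89 and 9.56 CPM, a log2 fold change of 1.63 ± 0.17 (adjusted p = 2.11e-08). The libraries labelled TAZ4SA held 3.53, 3.61 and 4.43 CPM, a log2 fold change of 0.26 with a 95% confidence interval from -0.10 to 0.62 (adjusted p = 0.222). TAZ-CAMTA1 held 5.08, 5.96 and 3.57 CPM, and its log2 fold change of 0.59 ± 0.17 passed narrowly (adjusted p = 0.042). That call was lost in 7 of 14 alternatives, with an adjusted p of 0.247 without TAZ-CAMTA1 replicate 2, the highest library, 0.119 without TAZ-CAMTA1 replicate 1, and between 0.0636 and 0.145 without any 1 of the EV libraries.

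AMOTL1 (ENSG00000166025, chr11:94706431-94876748, plus strand) measured 167.0, 184.0 and 146.6 CPM in EV and had the narrowest range of the 10 genes. Its log2 fold change was 0.03 in YAP5SA, with a 95% confidence interval from -0.15 to 0.22, and -0.01 in the libraries labelled TAZ4SA, with an interval from -0.19 to 0.18. It fell by 0.38 ± 0.09 in YAP-TFE3 (adjusted p = 0.00123), which held 130.2, 134.3 and 118.1 CPM. TAZ-CAMTA1, at 135.0, 146.0 and 124.6 CPM, had a log2 fold change of -0.30 that missed the threshold (adjusted p = 0.0596).

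The make-up of the angiomotin family therefore differed between groups. Per kilobase, AMOTL1 made up 82.0 ± 1.84% of the family in EV and AMOTL2 16.1 ± 1.74%. AMOTL2 held 52.9 ± 4.81% in TAZ-CAMTA1, 60.2 ± 0.75% in YAP-TFE3, 72.1 ± 2.70% in YAP5SA and 75.6 ± 0.48% in the libraries labelled TAZ4SA. Per kilobase, AMOTL2 was the larger of the pair in each of these 12 libraries and in none of the other 12. This split rests on the joined exon lengths, 10030 bases for AMOTL1 and 6479 for AMOTL2. In CPM, AMOTL1 was the higher in TAZ-CAMTA1, at 135 ± 10.7 against 103 ± 13.2. The 2 were level in YAP-TFE3, at 128 ± 8.4 for AMOTL1 and 129 ± 9.1 for AMOTL2. AMOT held between 0.66% and 2.55% on average in every group. The family total was 20.1 ± 1.82 CPM per kilobase in EV, 29.9 ± 1.53 in TAZ-CAMTA1, 33.0 ± 2.14 in YAP-TFE3, 64.9 ± 2.04 in YAP5SA and 69.2 ± 2.15 in the libraries labelled TAZ4SA.

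**Figure D2:**
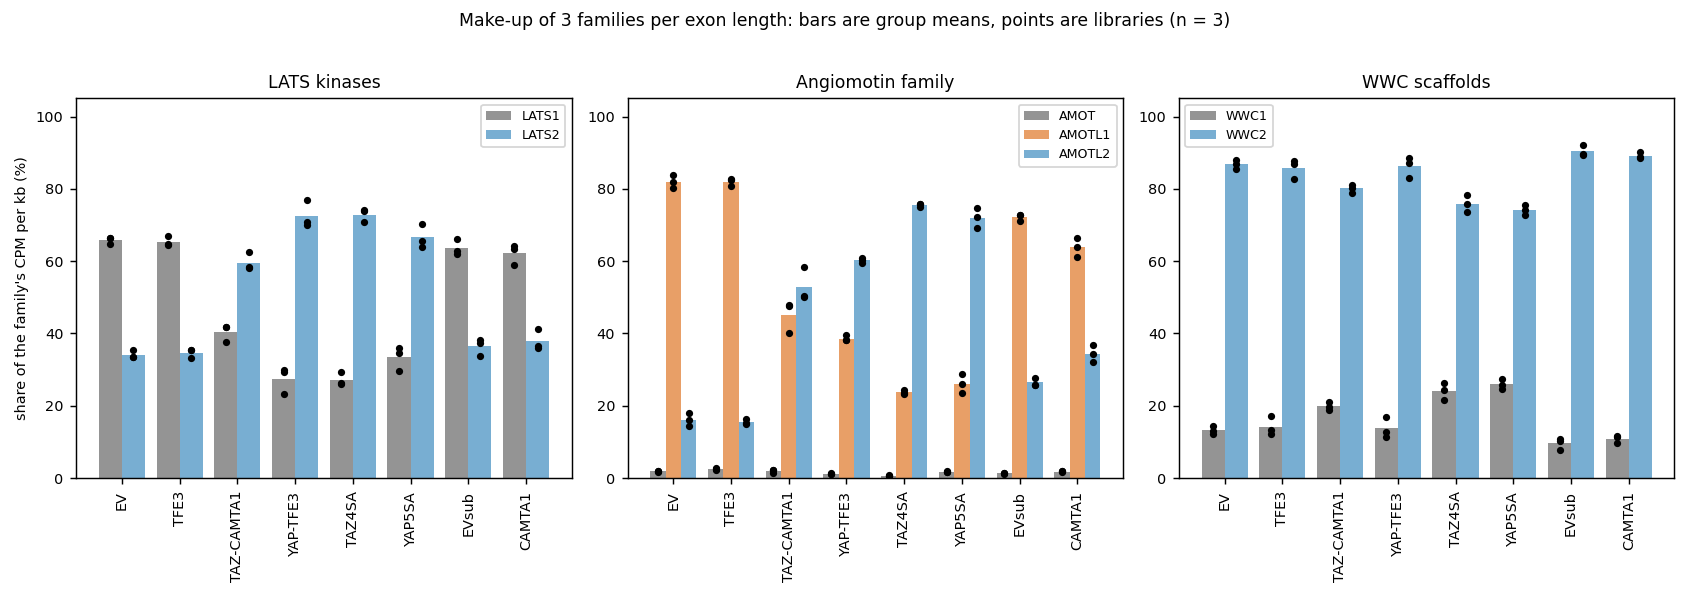
Share of each paralog in its family's CPM per kilobase of exon (y axis, percent), by group (x axis), for the LATS kinases, the angiomotins and WWC1 with WWC2. Bars are means of 3 libraries and points are libraries. LATS2 goes from 34.2% in EV to 72.9% in the libraries labelled TAZ4SA, and AMOTL2 from 16.1% to 75.6%.

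PTPN14 (ENSG00000152104, chr1:214348700-214552449, minus strand) is a phosphatase that binds YAP and, with WWC proteins, promotes LATS activity. It measured 107.0, 105.7 and 102.8 CPM in EV and 192.0, 177.6 and 182.0 CPM in YAP5SA. It measured 173.6, 186.7 and 186.8 CPM under the label TAZ4SA, 182.4, 185.0 and 160.6 CPM in YAP-TFE3 and 166.5, 174.5 and 179.0 CPM in TAZ-CAMTA1. PTPN14 rose by nearly the same factor in all 4 groups. The folds were 1.75 in YAP5SA, 1.73 in the libraries labelled TAZ4SA, 1.67 in YAP-TFE3 and 1.65 in TAZ-CAMTA1, with an adjusted p of at most 2.52e-07. It was the only one of the 10 genes that was called in none of the 4 comparisons between construct lines. Its log2 differences there lay between -0.07 and -0.01, and the 95% confidence intervals reached from -0.22 to 0.14 at their widest bounds. The 4 unadjusted p-values were 0.315 or above, and DESeq2 also called it in none of them.

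WWC1 and WWC2 encode KIBRA and its paralog, scaffolds that join Merlin to LATS. WWC1 (ENSG00000113645, chr5:168291645-168472303, plus strand) measured 4.796, 5.331 and 4.942 CPM in EV. YAP5SA held 39.9, 41.5 and 44.9 CPM, the libraries labelled TAZ4SA 30.4, 30.8 and 30.9 CPM, TAZ-CAMTA1 17.9, 18.6 and 19.2 CPM and YAP-TFE3 16.2, 19.6 and 10.6 CPM. All 12 of these libraries lay above the EV libraries. WWC1 rose by 3.07 ± 0.18 on the log2 scale in YAP5SA, 2.61 ± 0.17 in the libraries labelled TAZ4SA, 1.88 ± 0.17 in TAZ-CAMTA1 and 1.62 ± 0.17 in YAP-TFE3, with an adjusted p of at most 6.35e-08.

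WWC2 (ENSG00000151718, chr4:183099257-183320777, plus strand) measured 34.5, 31.4 and 32.4 CPM in EV and 113.8, 109.3 and 137.0 CPM in YAP5SA. It measured 84.5, 95.6 and 110.4 CPM under the label TAZ4SA, 108.6, 94.9 and 81.0 CPM in YAP-TFE3 and 66.3, 75.4 and 81.6 CPM in TAZ-CAMTA1. The log2 fold changes were 1.87 ± 0.13, 1.56 ± 0.13, 1.53 ± 0.13 and 1.18 ± 0.13 in that order, all with an adjusted p of at most 1.07e-06. WWC2 was the more abundant of the pair per kilobase throughout, at 86.8 ± 1.16% of their sum in EV and 74.1 ± 1.41% in YAP5SA. The estimate of WWC1 was above that of WWC2 on the log2 scale in each of the 4 groups, a difference that was not tested. In YAP-TFE3 the 2 estimates were close, and WWC1 made up 13.8 ± 2.84% of the pair, beside 13.2 ± 1.16% in EV.

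**Figure D3:**
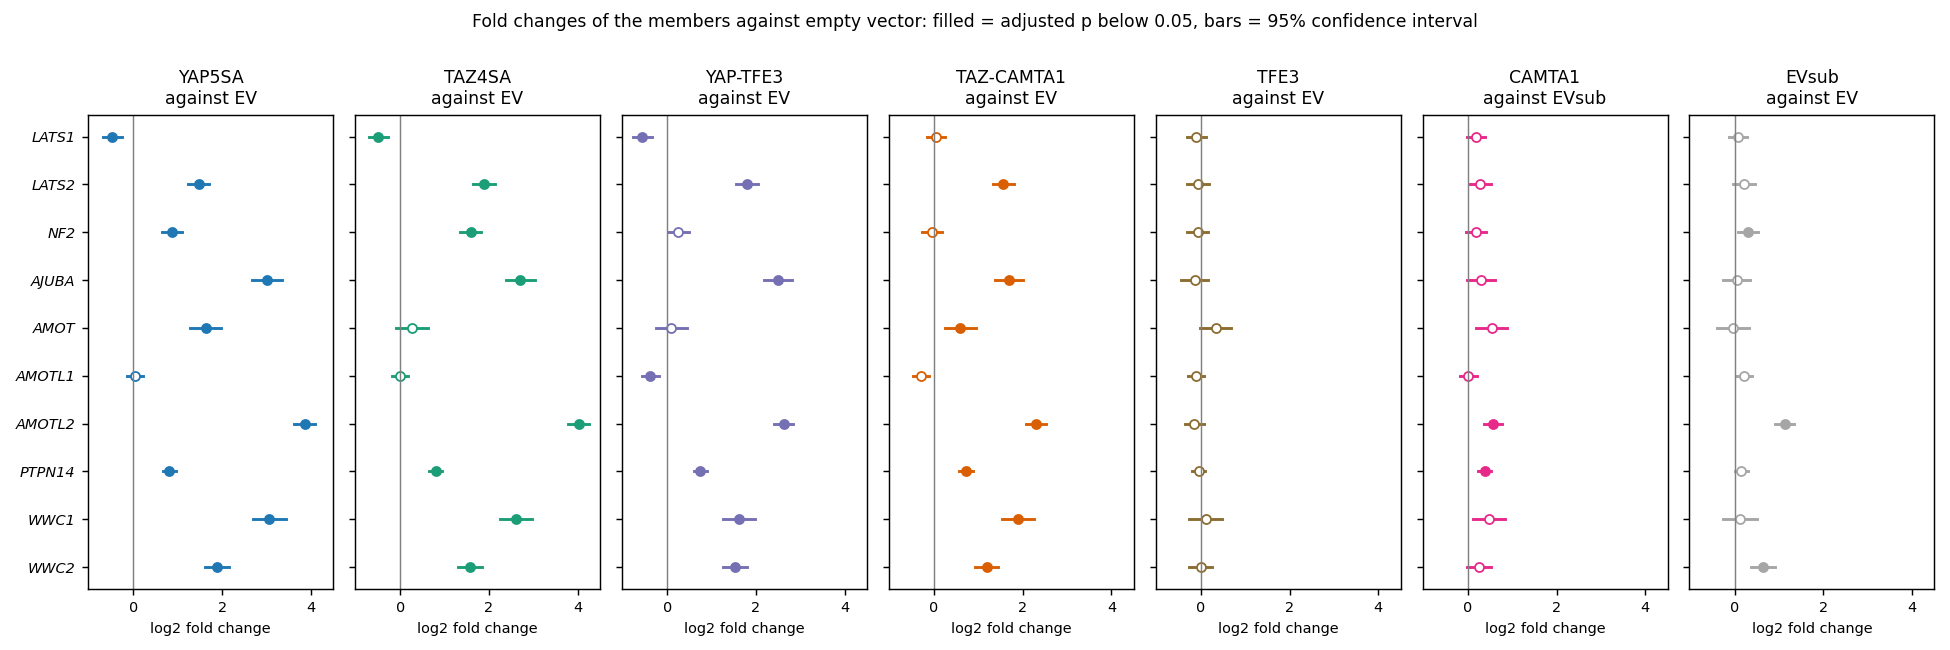
Log2 fold change (x axis) of each of the 10 genes (y axis) in 7 comparisons with empty vector, from the edgeR fit. Circles are estimates, filled where the adjusted p was under 0.05, and bars are 95% confidence intervals. AMOTL2 is farthest to the right with the 4 YAP and TAZ constructs, LATS1 lies left of 0 for 3 of them, and no circle is filled for TFE3.

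In YAP5SA, 8 of the 10 genes were called higher than in EV and 1, LATS1, lower, where 22.7% of all tested genes were called higher and 21.6% lower. In the libraries labelled TAZ4SA, 7 were higher and LATS1 was lower, against 25.1% and 24.2% of all tested genes. YAP-TFE3 had 6 higher and 2 lower, LATS1 and AMOTL1, against 25.6% and 22.6%. TAZ-CAMTA1 had 7 higher and none lower in edgeR, against 3.55% and 1.44% of all tested genes. AMOTL1, with an unadjusted p of 0.00329, was the 1 gene below 0.05 with a negative change there, and DESeq2 called it lower (adjusted p = 0.0273). These 4 comparisons share the EV libraries. The median log2 fold change of the 10 genes was 1.55 in YAP5SA, 1.57 in the libraries labelled TAZ4SA, 1.14 in YAP-TFE3 and 0.95 in TAZ-CAMTA1, beside medians of all tested genes between -0.036 and 0.0049. All calls in YAP5SA, YAP-TFE3 and the libraries labelled TAZ4SA held in each of the 14 alternatives run, as did 6 of the 7 in TAZ-CAMTA1.

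The summed level of the epithelial markers also differed between these groups. The sum of 5 such markers was 206 to 221 CPM in EV, 407 to 517 CPM in TAZ-CAMTA1, 247 to 354 CPM in YAP-TFE3, 1892 to 2161 CPM under the label TAZ4SA and 3016 to 4026 CPM in YAP5SA. Nearly all of this was KRT8 and KRT18. EPCAM and CLDN4 had their highest group means in EV, at 1.20 and 7.28 CPM, and CDH1 stayed at group means of at most 1.53 CPM. The 5 endothelial markers summed to 86.3 to 125 CPM in EV, 84.7 to 132 CPM in TAZ-CAMTA1, 43.3 to 60.9 CPM in YAP-TFE3, 31.9 to 52.8 CPM under the label TAZ4SA and 13.5 to 18.7 CPM in YAP5SA. The 6 fat cell markers summed to 149 to 223 CPM in EV, 173 to 235 CPM in TAZ-CAMTA1, 304 to 370 CPM in YAP-TFE3, 64.2 to 74.5 CPM under the label TAZ4SA and 118 to 132 CPM in YAP5SA. The part of these levels in the results was not tested.

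The parental transcription factors gave few calls among the 10 genes. With TFE3, none of the 10 was called in the edgeR test, beside 0.035% of all tested genes called higher and 0.0% lower. None of the 10 had an unadjusted p under 0.05, beside 757 of all 19997 tested genes. DESeq2 also called none. The estimates with TFE3 lay between -0.15 (AMOTL2) and 0.34 (AMOT) on the log2 scale, with a 95% confidence interval for AMOT from -0.01 to 0.69. The interval of WWC1, the next to reach high, ran from -0.26 to 0.48, and that of AJUBA, which reached lowest, from -0.45 to 0.17.

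With CAMTA1, set against EVsub, AMOTL2 and PTPN14 were called higher, beside 1.26% of all tested genes higher and 0.57% lower. AMOTL2 measured 73.5, 62.7 and 66.6 CPM with CAMTA1 and 43.2, 42.2 and 51.5 CPM in EVsub, a log2 fold change of 0.57 ± 0.10 (adjusted p = 0.00172). PTPN14 measured 157.5, 157.2 and 141.5 CPM with CAMTA1 and 117.5, 114.4 and 117.4 CPM in EVsub, a log2 fold change of 0.39 ± 0.07 (adjusted p = 0.00277). All 10 estimates were above 0, the lowest 0.01 (AMOTL1), beside 9604 of all 19997 tested genes. The unadjusted p was under 0.05 for 5 of the 10 and for 2474 of all tested genes. Among the 5 were LATS2, with a log2 fold change of 0.28 (adjusted p = 0.288), and AMOT, with 0.54 (adjusted p = 0.116). The 2 groups share no library with the comparisons above.

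Empty vector cells before and at confluence were compared too, since contact between cells is known to activate the Hippo pathway. AMOTL2 was 2.19-fold higher in EVsub than in EV, which held 20.4 to 21.1 CPM (adjusted p = 1.7e-07). WWC2 measured 57.9, 45.3 and 50.4 CPM in EVsub, above its 31.4 to 34.5 CPM in EV, a log2 fold change of 0.64 ± 0.13 (adjusted p = 0.000495). NF2 was higher by 0.30 ± 0.11 (adjusted p = 0.0373), a call lost in 7 of 14 alternatives, 5 of which left out 1 of the libraries EV 1, EV 2, EV 3, EVsub 1 and EVsub 3 (adjusted p from 0.0606 to 0.143). The other 7 genes were not called, and 19.8% of all tested genes were called higher in EVsub and 17.1% lower. LATS2, at 12.05, 12.03 and 13.51 CPM in EVsub, had a log2 fold change of 0.22 with a 95% confidence interval from -0.03 to 0.47 (adjusted p = 0.156).

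Each fusion was then compared with the hyperactive protein that shares its N-terminal part. TAZ-CAMTA1 had lower levels of 7 of the 10 genes than the libraries labelled TAZ4SA and a higher level of 1. Of all 19997 tested genes, 5354 were called lower and 5376 higher, or 53.7% in either direction. AMOTL2 was 3.30-fold lower, NF2 3.09-fold, AJUBA 2.04-fold and WWC1 1.65-fold lower, with an adjusted p of at most 0.00043. NF2 in TAZ-CAMTA1, at 64.5 to 66.6 CPM, overlapped its EV range of 64.9 to 69.9 CPM, while the libraries labelled TAZ4SA held at least 168.5 CPM. LATS1 was 1.45-fold higher in TAZ-CAMTA1 (adjusted p = 0.000105). The smaller differences of LATS2 (-0.32 ± 0.11, adjusted p = 0.0194), WWC2 (-0.38 ± 0.13, adjusted p = 0.0137) and AMOTL1 (-0.29 ± 0.09, adjusted p = 0.00934) were lost when libraries were scaled by total counts (adjusted p = 0.429, 0.285 and 0.355). That scaling moved the median of all tested genes by 0.20 on the log2 scale in this comparison. The LATS2 call was also lost without TAZ-CAMTA1 replicate 1 or 2 or the library labelled TAZ4SA replicate 2 (adjusted p from 0.0709 to 0.0816), and the WWC2 call without TAZ-CAMTA1 replicate 1 (0.0606) or the library labelled TAZ4SA replicate 3 (0.0917).

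YAP-TFE3 was lower than YAP5SA in 7 of the 10 genes and higher in 1. Of all 19997 tested genes, 4867 were called lower and 5618 higher, or 52.4% in either direction. AMOT was 2.89-fold lower, WWC1 2.73-fold, AMOTL2 2.35-fold, NF2 1.53-fold and AJUBA 1.43-fold lower, with an adjusted p of at most 0.00497. AMOTL1 was 1.33-fold lower (adjusted p = 0.000478). LATS2 was the one member with a higher level in the fusion, by 0.33 ± 0.11 on the log2 scale (adjusted p = 0.0155). This call was lost without YAP-TFE3 replicate 3 (adjusted p = 0.0694), without YAP5SA replicate 1 (0.0869) and when only the 2 groups were fitted (0.0708). WWC2 was lower by 0.34 ± 0.13 (adjusted p = 0.0255), which was lost without YAP-TFE3 replicate 2 (0.056), YAP-TFE3 replicate 3 (0.133) or YAP5SA replicate 3 (0.149), under total-count scaling (0.157) and when only the 2 groups were fitted (0.0583). LATS1 and PTPN14 were not called.

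**Figure D4:**
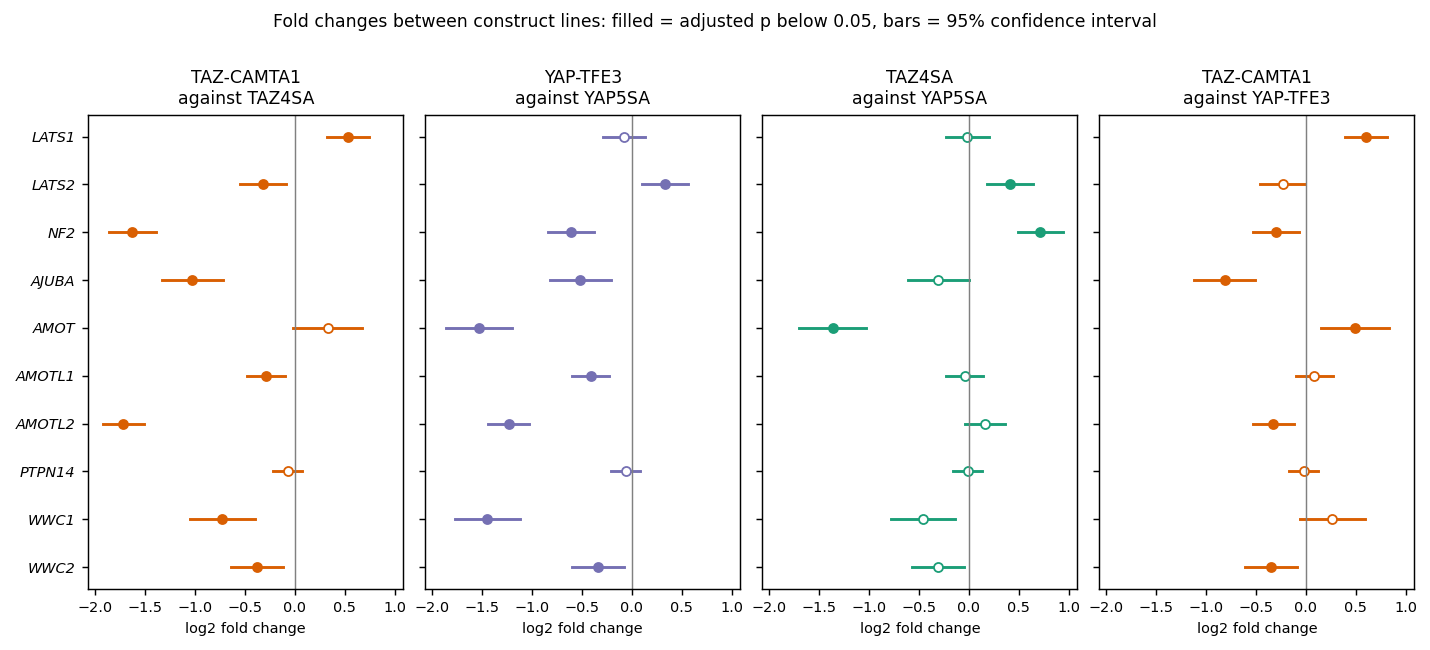
Log2 fold change (x axis) of each of the 10 genes (y axis) in 4 comparisons between construct lines. Circles are estimates, filled where the adjusted p was under 0.05, and bars are 95% confidence intervals. The interval of PTPN14 spans 0 in all 4 panels, and AMOTL2 lies left of 0 in both comparisons of a fusion with its hyperactive parent, at -1.72 and -1.24.

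The 2 hyperactive proteins were then set side by side. Between the libraries labelled TAZ4SA and YAP5SA, 7.17% of all tested genes were called in either direction, and 3 of the 10 genes were. The unadjusted p was under 0.05 for 6 of the 10 and for 3684 of all 19997 tested genes. AMOT was 2.58-fold lower in the libraries labelled TAZ4SA (adjusted p = 3.95e-06), NF2 was 1.64-fold higher (adjusted p = 9.74e-05) and LATS2 1.33-fold higher (adjusted p = 0.0229). The LATS2 call was lost without the library labelled TAZ4SA replicate 2 (adjusted p = 0.0996) or YAP5SA replicate 1 (0.139). For AMOTL2 the log2 difference was 0.16 with a 95% confidence interval from -0.04 to 0.36, and for WWC1 it was -0.46 with an interval from -0.78 to -0.14 (adjusted p = 0.0788). WWC1 did not overlap between these groups, and it was called by DESeq2 (adjusted p = 0.0477), with no filter (0.0184) and when only the 2 groups were fitted (0.0112).

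TAZ-CAMTA1 differed from YAP-TFE3 in 6 of the 10 genes, beside 42.7% of all tested genes. LATS1 was 1.52-fold higher in TAZ-CAMTA1 (adjusted p = 3.48e-05) and AJUBA 1.76-fold lower (adjusted p = 9.03e-05), and both calls held in all 14 alternatives. The calls of AMOTL2 (lower by 0.32 ± 0.10), WWC2 (lower by 0.35 ± 0.13), NF2 (lower by 0.30 ± 0.11) and AMOT (higher by 0.49 ± 0.16) were each lost in 4 to 7 of the 14. Without TAZ-CAMTA1 replicate 1, 2 of the 10 genes were called, and without TAZ-CAMTA1 replicate 2 or without YAP-TFE3 replicate 2, 3 were.

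The core promoter regions of the 10 genes were read for short motifs, which were chosen after the values were seen. RefSeq gives 14 windows for the 10 genes on GRCh38.p14, from 250 bases before to 50 after each start. The letters CATTCC, the core that TEAD proteins recognise, were searched on both strands, so that GGAATG counted too. They occurred in 5 of the 14 windows, of LATS2, AMOTL2, PTPN14, WWC2 and AJUBA, and in 14.0% of all 35116 windows. By gene, that is 5 of the 10 genes beside 16.7% of 27305 genes. The windows at the farther upstream starts of AMOTL2 and AJUBA held none. The matches of these 2 genes lie in their own annotated exons. The windows of WWC1, which also rose, and of LATS1, NF2, AMOT and AMOTL1 held none. TGANTCA, the AP-1 motif, occurred in 1 window, of LATS1, and in 7.71% of all windows. TCACGTGA, a motif of the TFE3 family that reads the same on both strands, occurred in the window of LATS2 and in 0.98% of all windows. A match describes letters and is not evidence of binding.

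The stretches with matches are shown 5′ to 3′ on the strand of the gene, with the matched letters in capitals. PTPN14 is given in full upstream of its start, and the others by the 30 bases around their matches. LATS2 is chr13:21061568-21061597 and holds TCACGTGA across its start and GGAATG after it. AMOTL2 is chr3:134374499-134374528 and AJUBA is chr14:22976884-22976913, both at an internal start of the gene. WWC2 is chr4:183099030-183099059 with 2 matches. PTPN14 is chr1:214551603-214551852, also at an internal start of the gene.
LATS2: cggggTCACGTGAcgcccgtGGAATGccaa
AMOTL2: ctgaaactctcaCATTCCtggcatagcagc
AJUBA: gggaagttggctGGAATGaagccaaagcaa
WWC2: gctcaGGAATGcggcgcgaGGAATGcgcat
PTPN14: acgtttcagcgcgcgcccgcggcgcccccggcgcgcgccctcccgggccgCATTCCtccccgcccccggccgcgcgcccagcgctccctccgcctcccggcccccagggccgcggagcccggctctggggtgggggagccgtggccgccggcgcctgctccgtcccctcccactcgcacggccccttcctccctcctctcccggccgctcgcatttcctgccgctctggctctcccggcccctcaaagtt

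The rest of the Hippo pathway was read in 6 further lists. YAP/TAZ targets were 19 genes of a published signature without those among the 10. Of these, 16 were called higher in YAP5SA, 15 in the libraries labelled TAZ4SA, 13 in YAP-TFE3 with 2 lower, and 6 in TAZ-CAMTA1. Of all tested genes, 22.7%, 25.1%, 25.6% and 3.55% were called higher in the same order, and 22.6% lower in YAP-TFE3. CCN2, a secreted matrix protein and standard YAP target, rose by 4.53 ± 0.21 on the log2 scale in YAP5SA, 4.80 ± 0.21 in the libraries labelled TAZ4SA, 3.12 ± 0.20 in YAP-TFE3 and 2.49 ± 0.19 in TAZ-CAMTA1. ANKRD1, a muscle ankyrin repeat protein, rose by 7.41 ± 0.39, 7.82 ± 0.39 and 2.93 ± 0.40 in the first 3 of these. The median log2 fold change of the 19 targets was 1.34, 1.19, 0.70 and 0.28 in the same order, beside 1.55, 1.57, 1.14 and 0.95 for the 10 genes.

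The 14 genes of the kinase core, which hold the MST kinases that activate LATS, their partners and related kinases had 3 that rose and 4 that fell in YAP5SA. The libraries labelled TAZ4SA had 4 that rose and 6 that fell, YAP-TFE3 had 5 and 3, and TAZ-CAMTA1 had 1 that rose. The shares of all tested genes called higher and lower were 22.7% and 21.6% in YAP5SA, 25.1% and 24.2% under the label TAZ4SA, 25.6% and 22.6% in YAP-TFE3 and 3.55% and 1.44% in TAZ-CAMTA1, and apply to each list below. SAV1, the adaptor of the MST kinases, rose by 0.77 ± 0.09 in YAP5SA, 0.78 ± 0.09 in the libraries labelled TAZ4SA and 0.32 ± 0.09 in YAP-TFE3. TNIK fell by 1.15 ± 0.10 and 1.63 ± 0.10 in these and rose by 0.78 ± 0.10 in YAP-TFE3 and 0.51 ± 0.10 in TAZ-CAMTA1.

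Among 18 tested upstream scaffolds, 10 were higher and 2 lower in YAP5SA, 11 and 3 in the libraries labelled TAZ4SA, 9 and 3 in YAP-TFE3 and 6 higher in TAZ-CAMTA1. Relatives of the 10 genes led this list. WTIP, of the same protein family as AJUBA, rose by 2.15 ± 0.13 in YAP5SA, 1.86 ± 0.13 in the libraries labelled TAZ4SA, 2.28 ± 0.13 in YAP-TFE3 and 2.49 ± 0.13 in TAZ-CAMTA1. WWC3 rose by 1.32 ± 0.12, 1.48 ± 0.12 and 1.24 ± 0.12 in the first 3 and by 0.53 ± 0.12 in TAZ-CAMTA1. PTPN21, a paralog of PTPN14, rose by 1.07 ± 0.09 in YAP5SA, 0.51 ± 0.09 in the libraries labelled TAZ4SA, 1.42 ± 0.09 in YAP-TFE3 and 0.76 ± 0.09 in TAZ-CAMTA1.

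Of the 12 turnover genes, which mark YAP, TAZ, LATS or angiomotins for degradation, 7 were higher and 2 lower in YAP-TFE3, 4 and 3 under the label TAZ4SA, 3 and 1 in YAP5SA, and 2 higher in TAZ-CAMTA1. NEDD4L, a ubiquitin ligase, rose by 1.21 ± 0.08 in YAP5SA, 1.24 ± 0.08 in the libraries labelled TAZ4SA, 1.41 ± 0.08 in YAP-TFE3 and 0.38 ± 0.08 in TAZ-CAMTA1. STRIPAK, the phosphatase complex that opposes the MST kinases, had at most 3 of 11 genes called in any of the 4 comparisons with EV. Between EVsub and EV, 7 were higher and 2 lower, beside 19.8% and 17.1% of all tested genes. MOB4 rose by 1.30 ± 0.22 in EVsub. Of the 7 effectors, which include YAP1 and WWTR1, 3 were higher and 3 lower in YAP5SA, 2 and 3 in the libraries labelled TAZ4SA, 3 and 2 in YAP-TFE3, and 3 higher in TAZ-CAMTA1. The DNA-binding partner TEAD4 rose by 1.29 ± 0.11 in YAP5SA, 1.36 ± 0.11 in the libraries labelled TAZ4SA, 1.27 ± 0.11 in YAP-TFE3 and 1.05 ± 0.11 in TAZ-CAMTA1.

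**Figure D5:**
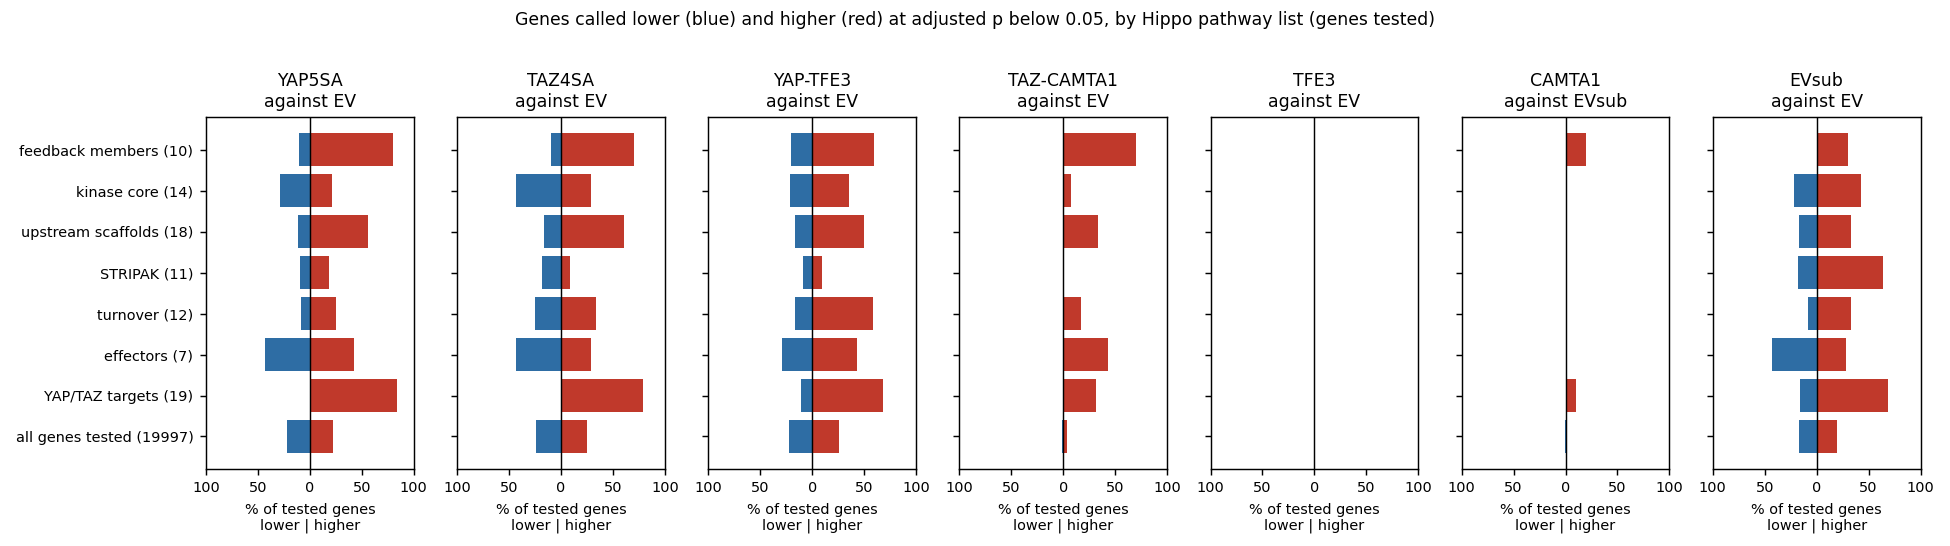
Percent of tested genes called higher (red, to the right) and lower (blue, to the left) at an adjusted p under 0.05, for the 10 genes (labelled feedback members), 6 other pathway lists and all 19997 tested genes (y axis, with genes tested), in 7 comparisons with empty vector. In TAZ-CAMTA1, 7 of the 10 genes and 6 of the 19 YAP/TAZ targets are called higher, beside 3.55% of all genes.

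Likeness between genes was read from 8 group means of log2 CPM, which share libraries and scaling, so that the correlations are descriptions. The 6 genes that set the construct libraries apart from EV and TFE3 were picked from these same values. A high r among them was therefore largely set by that choice. Among LATS2, AMOTL2, PTPN14, WWC1, WWC2 and AJUBA, Pearson's r lay between 0.90 (PTPN14 and WWC1) and 0.97 (AMOTL2 and WWC2). For the rest, r with AMOTL2 was 0.79 (NF2), 0.53 (AMOT), -0.13 (AMOTL1) and -0.65 (LATS1). LATS1 was negatively related to 8 of the other 9 genes, with r = -0.82 for AJUBA and -0.69 for LATS2, and positively to AMOTL1 (r = 0.47). Among 12154 genes averaging 100 counts or more, those most like LATS2 were PKP4 (r = 0.99), CEBPD (0.99) and BCL9L (0.98). Those most like AMOTL2 were FBXW11 (0.99), whose level ranged only 1.12-fold, NFE2L3 (0.98) and TRNP1 (0.98). Those most like LATS1 were BVES (0.99), the pseudogene DPY19L2P1 (0.99) and DENND6A (0.99).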

How the data were processed

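Poly(A) RNA of 24 libraries was prepared with a strand-marking kit, sequenced as read pairs and processed by the authors with bcbio-nextgen 1.0.8 on hg38 with Ensembl 78 annotation. The deposited values are unnormalized read counts per gene. The methods name Hisat2 for alignment and Salmon with tximport for gene-level counts. Which route made the deposited whole-number counts, and its use of strand and multi-mapped reads, are not given in the sources used here. GENCODE 44 gave symbols, coordinates and exon lengths for 56104 of 60279 genes. All 24 libraries were fitted together with edgeR 4.0.16 in R 4.3.3 (TMM scaling, quasi-likelihood F test, a mean of at least 5 counts). Genes were called at a Benjamini-Hochberg adjusted p under 0.05 over the 19997 genes tested. DESeq2 1.42.0, other scalings and filters, fits on the groups compared, a replicate block and fits without each library were alternatives. The fit was tested on simulated data. The members, gene lists and tests were chosen with earlier results of these data known, and the motifs after the values were seen. All 10 members were named in each comparison. Other lists named up to 3 called genes per comparison with empty vector, by largest fold among those with a mean of at least 100 counts, of which some are printed, and LATS1, LATS2 and AMOTL2 the 3 genes most like them. RefSeq promoter windows are on GRCh38.p14. Libraries of one group differed by more than counting noise, YAP-TFE3 replicate 3 the most. Counts carry no molecular identifiers.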

Additional observations from a re-analysis of the deposited data

How the results depend on the processing

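Of 62 calls of the 10 genes over 11 comparisons, 50 kept their direction and stayed under the threshold in all alternatives run, and no call changed direction. Values that changed sign had not been called, and their cause was not tested. Total-count scaling moved the median of all genes by -0.18 in YAP5SA and -0.20 in the libraries labelled TAZ4SA (TAZ4SA for short here), both against EV. Under it, the log2 fold change became -0.154 for AMOTL1 (YAP5SA against EV), 0.0032 for WWC2 (TFE3 against EV), -0.0136 for AMOTL1 (CAMTA1 against EVsub), -0.0226 for AJUBA (EVsub against EV), 0.1253 for PTPN14 (TAZ-CAMTA1 against TAZ4SA), 0.0188 for LATS1 and 0.0384 for PTPN14 (YAP-TFE3 against YAP5SA) and 0.0645 for PTPN14 (TAZ-CAMTA1 against YAP-TFE3). Under upper-quartile scaling it became -0.0074 for AMOTL1 (YAP5SA against EV), 0.004 for WWC2 (TFE3 against EV), -0.0417 for LATS1 and -0.0752 for AJUBA (EVsub against EV), 0.0205 for PTPN14 (TAZ-CAMTA1 against YAP-TFE3) and 0.0015 for LATS1 and 0.004 for PTPN14 (TAZ4SA against YAP5SA). With no filter it became 0.0059 for AMOTL1 (TAZ4SA against EV) and 0.0145 for WWC2 (TFE3 against EV). When only the groups compared were fitted, PTPN14 became 0.0084 (TAZ-CAMTA1 against YAP-TFE3), 3 genes were called instead of 6 in that comparison and 5 instead of 3 between TAZ4SA and YAP5SA. Total-count scaling also left 3 of those 6. Leaving out 1 library at a time left 2 to 6 genes called between TAZ-CAMTA1 and YAP-TFE3. It gave log2 fold changes from -0.0478 to 0.1144 for AMOTL1 in YAP5SA and -0.0877 to 0.0741 in TAZ4SA, -0.0261 to 0.1677 for AMOT in YAP-TFE3 and -0.0802 to 0.0562 for WWC2 in TFE3, all against EV. It gave -0.0177 to 0.0584 for AMOTL1 (CAMTA1 against EVsub), -0.0835 to 0.0426 for AMOT and -0.0386 to 0.1531 for AJUBA (EVsub against EV), -0.1515 to 0.0045 for LATS1 and -0.0983 to 0.001 for PTPN14 (YAP-TFE3 against YAP5SA), -0.0858 to 0.0135 for PTPN14 (TAZ-CAMTA1 against YAP-TFE3), and -0.0898 to 0.0486 for LATS1, -0.1031 to 0.0082 for AMOTL1 and -0.0353 to 0.0233 for PTPN14 (TAZ4SA against YAP5SA). No comparison had 3 same-number correlations of deviations over 0.1, so replicate numbers were not used as pairs in the main fit. Single values ran from -0.236 (replicate 1, TFE3 against EV) to 0.366 (replicate 3, TAZ4SA against YAP5SA). Whether replicate numbers share an effect across groups was not tested. With the replicate number as a replicate block, no call was lost and AMOTL1 was also called in TAZ-CAMTA1 (-0.29, adjusted p = 0.0278) and EVsub (0.22, adjusted p = 0.0316), both against EV. AMOT, with 61 to 102 counts in EV, has the lowest depth of the 10 genes.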
